A study of Mus musculus with 2 samples.

Results

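Of the 24346 gene symbols listed for whole mouse omentum, 8 that mark lymphatic endothelium or belong to the VEGF-C axis were examined here. They were Prox1, Flt4, Reln, Mmrn1, Pdpn, Vegfc, Nrp2 and Itga9, chosen by name for their known roles, with earlier results of these data known, and each was found once. RNA-seq was performed on whole omenta 5 days after diphtheria toxin (DT), with 1 library from wild-type (WT) mice and 1 from Postn-DTR mice. Postn-DTR mice are heterozygotes made in C57BL/6 zygotes, in which a DT receptor cassette was placed in the first coding exon of Postn, so that DT kills cells in which the Postn promoter is active. Both genotypes received DT. The promoter was used in the study to target Aldh1a2+ fibroblastic reticular cells (FRCs) of the milky spots, which are the lymphoid clusters of the omentum. Periostin is also made by mesenchymal cells of other organs, so the ablation need not be limited to the omentum. Age, sex and the number of mice behind each library were not given in the labels.

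Lymphatic endothelial cells line the vessels that return fluid, lipid and leukocytes from tissues. Their identity is set by the transcription factor PROX1, which switches on the receptor VEGFR-3, encoded by Flt4. The growth factor VEGF-C binds VEGFR-3, with neuropilin-2 as a co-receptor, and drives the growth and survival of lymphatic vessels. Few of the genes are restricted to this cell type. Podoplanin, the product of Pdpn, is also found on FRCs and mesothelium, multimerin-1 in platelets, and VEGF-C is mostly a product of macrophages, fibroblasts and other stromal cells.

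Values are FPKM, that is, fragments per kilobase of transcript, scaled to the mapped total. They totalled 542190 (WT) and 671882 (Postn-DTR). The step size of low values placed the denominators at about 23300000 fragments (WT) and 24100000 fragments (Postn-DTR), and the reads given below were estimated from these and from the longest annotated coding transcript. The 95% intervals of fold values are exact binomial intervals on those reads and cover counting error only. With 1 library per genotype there was no spread between replicates and no test, and no difference below has a replicate check. The targeted gene, Postn, was 3.61-fold lower in Postn-DTR (16.2, against 58.3), in the direction of its label. The cassette lies in Postn itself, so this value does not measure the loss of targeted cells. Aldh1a2, which names the targeted FRCs and was also reported in mesothelial cells, was 1.35-fold lower (63.3, against 85.5). In whole tissue, fewer cells of a type and less RNA per cell cannot be told apart.

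The defining factor of the cell type was almost absent. Prox1 (ENSMUSG00000010175, chromosome 1, 190118035 to 190170714 on the minus strand, GRCm38) was at an FPKM of 0.0218 (WT) and 0.0738 (Postn-DTR). These values correspond to about 4 and 14 reads, against a floor of 3 reads. Prox1 was thus far under the expression minimum, a mean FPKM of 1 over both libraries, and its fold of 3.38 had an interval from 1.06 to 14.1. The name of the gene group therefore rests on the known roles of its other genes, few of which are restricted to this cell type. Markers of the cell type, in part the same genes, were listed as a check. Of the 10 lymphatic endothelial markers listed for this check, which were 5 of the 8 genes with Lyve1, Ccl21a, Gpr182, Sox18 and Nr2f2, 8 passed the minimum, 4 of them lower and 4 higher in Postn-DTR. Lyve1, the hyaluronan receptor of lymphatic capillaries and of some tissue macrophages, was the most abundant of the 10, at 108.5 (WT) and 95.04 (Postn-DTR). Prox1 is also expressed by hepatocytes and by cells of pancreatic ducts and islets, and the WT library held pancreatic acinar transcripts. The 25 acinar markers with a value summed to 12525 (WT) and 61.6 (Postn-DTR), 23 of the 24 compared being at least 2-fold lower and 6 being listed at 0 in Postn-DTR. Of these 6, Amy2a5 was at 0 in WT as well. Prox1 was lower in WT, but on only about 4 reads (WT) and 14 reads (Postn-DTR). Among the 12 islet and duct markers Ins1, Ins2, Sst, Iapp and Pdx1 were listed at 0 in both libraries, and Sox9 was at 0.566 (WT) and 0.168 (Postn-DTR). The hepatocyte gene Alb was at 2.17 and 1.22. Of the 10 hepatocyte markers 8 were under the minimum, and their sums of 686.8 and 1208 came almost wholly from Cyp2e1 (681.6 and 1205). The part of these tissues in the Prox1 values was not tested.

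**Figure D1:**
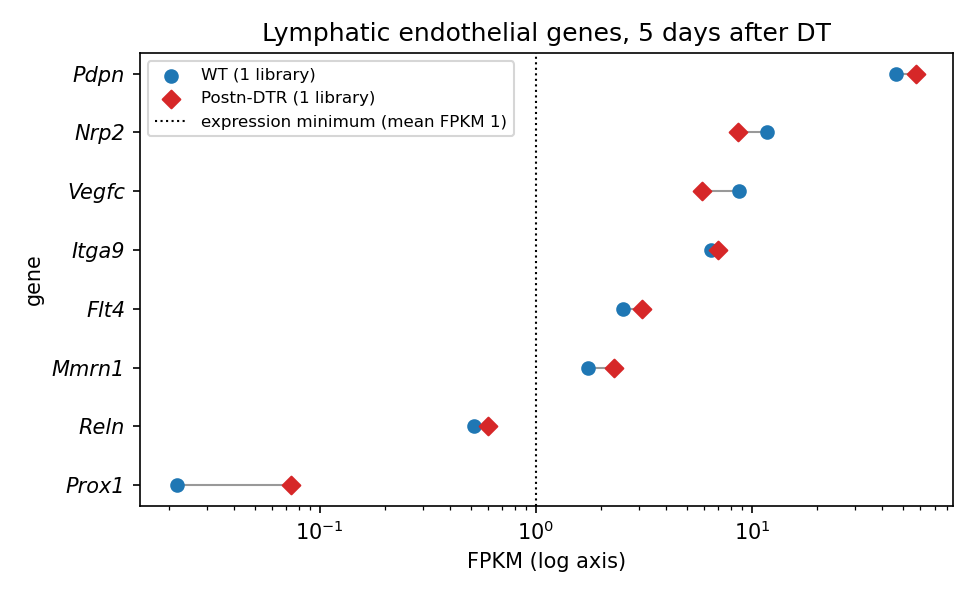
FPKM (horizontal log axis) of each of the 8 genes in the WT library (circles) and the Postn-DTR library (diamonds), 1 library per genotype, with a dotted line at the expression minimum. The genes span from 0.0218 for Prox1 to 57.1 for Pdpn, Reln and Prox1 lie under the minimum in both libraries, and Vegfc and Nrp2 are the genes whose diamond lies to the left of the circle.

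Mmrn1 (ENSMUSG00000054641, chromosome 6, 60924976 to 60989378 on the plus strand), which encodes a large glycoprotein of lymphatic endothelium and of platelet granules, was at 1.74 (WT) and 2.30 (Postn-DTR). This was 1.32-fold higher, with an interval from 1.08 to 1.62 on about 173 and 237 reads. Reln (ENSMUSG00000042453, chromosome 5, 21884454 to 22344702 on the minus strand) encodes reelin, a secreted glycoprotein of neurons that lymphatic endothelium also makes. Its FPKM of 0.515 and 0.603 lay under the minimum. The transcript is very long, so these values still rested on about 138 and 167 reads, and the fold of 1.17 had an interval from 0.928 to 1.48, which included no difference. Platelet markers were higher in Postn-DTR as well. All 4 platelet and megakaryocyte markers above the minimum were higher, with sums over the 10 markers of 152.9 and 297.0, mostly from Pf4 (146.9 and 280.5), which macrophages also make. Gp6 was listed at 0 in both libraries, whereas Treml1, found in platelets, was at 2.40 and 10.2. Their part in the Mmrn1 value was not tested.

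Pdpn (ENSMUSG00000028583, chromosome 4, 143267431 to 143299564 on the minus strand) was the most abundant of the 8 genes in both libraries. Podoplanin is a mucin-type glycoprotein that binds CLEC-2 on platelets and myeloid cells. Its FPKM was 46.6 (WT) and 57.1 (Postn-DTR), which was 1.23-fold higher, with an interval from 1.15 to 1.31 on about 1746 and 2212 reads. Marker sums of podoplanin-bearing cell types went in different directions at the reported scaling. The 10 FRC markers summed to 663.8 (WT) and 351.1 (Postn-DTR), with 7 lower and 4 of them, Postn, Dpt, Ccl19 and Matn2, at least 2-fold lower. Among these, Postn is the targeted gene itself. For Ccl19 the study reported comparable expression in omenta of both genotypes by quantitative PCR with several mice each, unlike the values here. Dpt (236.9 and 67.3) was the most abundant of the 10. The 3 higher FRC markers were Pdgfra (26.0 and 29.2), Ltbr (48.4 and 55.4) and Vcam1 (30.3 and 31.9). None of the 10 was higher by 1.5-fold. The 9 mesothelial markers with a value summed to 552.3 and 600.4. Of these, 6 were higher, with Msln at 37.2 and 67.9 and Upk1b at 39.4 and 75.3. The 3 lower ones were Upk3b (211.6 and 181.9), the most abundant of the 9, Lrrn4 (62.7 and 29.2) and Gpm6a (22.8 and 18.3). None of the FRC and mesothelial markers with a value was at 0. Their part in the Pdpn values was not tested.

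The ligand of the axis was lower in Postn-DTR. Vegfc (ENSMUSG00000031520, chromosome 8, 54077606 to 54187096 on the plus strand), which encodes VEGF-C, was at an FPKM of 8.69 (WT) and 5.88 (Postn-DTR). It was 1.48-fold lower, with an interval from 1.28 to 1.71 on about 453 and 317 reads. Its log2(FPKM + 1) changed by -0.49 from WT to Postn-DTR, and 11.5% of all genes compared had a more negative change. The gene of its receptor, Flt4 (ENSMUSG00000020357, chromosome 11, 49609263 to 49652739 on the plus strand) was at 2.53 (WT) and 3.08 (Postn-DTR), 1.22-fold higher, with an interval from 1.06 to 1.41 on about 356 and 449 reads. With the acinar genes removed and equal FPKM totals, the change of Flt4 was -0.040 and that of Vegfc -0.78, both lower. Flt4 is also used by some fenestrated blood vessels and by high endothelial venules. Relative to the pan-endothelial gene Pecam1 its level was 2.32% (WT) and 2.82% (Postn-DTR), and relative to the endothelial cadherin gene Cdh5 at 5.44% and 7.28%.

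Nrp2 (ENSMUSG00000025969, chromosome 1, 62703285 to 62818695 on the plus strand) encodes neuropilin-2, which binds VEGF-C and class 3 semaphorins and is found on veins and lymphatic vessels, and also on some myeloid cells. It was at 11.7 (WT) and 8.60 (Postn-DTR). This was 1.36-fold lower, with an interval from 1.27 to 1.46 on about 1775 and 1349 reads. Its change was -0.40, and 15.1% of genes compared had a more negative one. Its paralog Nrp1, the co-receptor of blood vessels, was lower by a like factor, at 32.4 and 22.1, so that Nrp2 stood at 36.1% of Nrp1 in WT and 38.9% in Postn-DTR. Itga9 (ENSMUSG00000039115, chromosome 9, 118606690 to 118901003 on the plus strand) encodes the integrin subunit alpha-9, needed for lymphatic valves, which pairs with the beta-1 subunit and binds fibronectin and EMILIN1. It was at 6.45 (WT) and 6.99 (Postn-DTR), a fold of 1.08 with an interval from 0.995 to 1.18, which included no difference. Macrophages can make VEGF-C and carry neuropilin-2. All 10 macrophage markers were higher in Postn-DTR, whereas 48.1% of all genes compared were lower, and none was at 0. Their sums of 3630 and 5979 came mostly from Lyz2 (2459 and 3563) and C1qa (726.8 and 1282). The folds ranged from 1.32 for Timd4 to 5.38 for Itgam, with Adgre1 at 41.1 and 137.6. The blood endothelial markers summed to 677.1 and 615.5, with 6 of 10 lower, 1 of them (Kdr) by 1.5-fold, and none at 0. Plvap (322.3 and 266.3), which was lower, made up the largest part of both sums. The 4 higher ones were Vwf (23.9 and 32.3), Emcn (34.0 and 40.9), Pecam1 (109.0 and 109.5) and Eng (75.2 and 76.2). Whether cell content sets the values of Vegfc and Nrp2 was not tested.

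**Figure D2:**
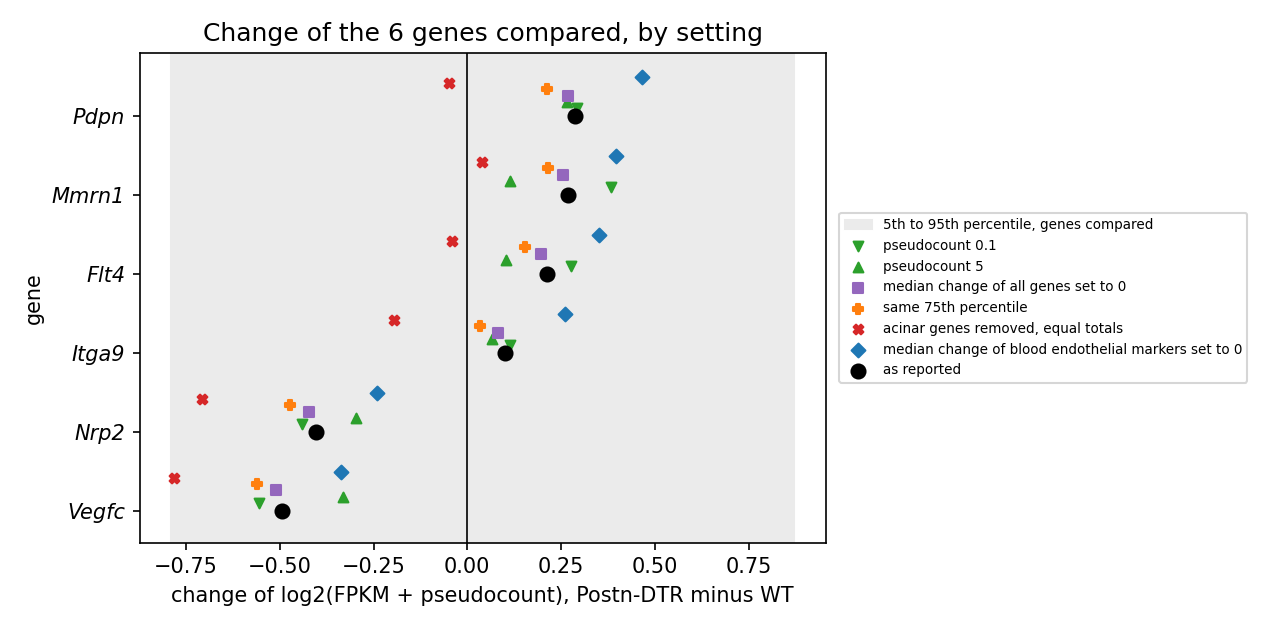
Horizontal axis, difference in log2(FPKM + pseudocount) from WT to Postn-DTR of the 6 genes above the expression minimum, with the value as reported (black circles) and under 6 other settings (coloured symbols). Grey marks the 5th to 95th percentile of all genes compared, from -0.79 to 0.87. Vegfc and Nrp2 lie below 0 in every setting shown, whereas Pdpn, Flt4 and Itga9 lie above 0 except at equal totals, and Mmrn1 lies above 0 in all of them.

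None of the 6 genes above the minimum reached 2-fold in either direction. Over all 13127 genes compared, 3.12% were at least 2-fold lower and 3.88% at least 2-fold higher in Postn-DTR, so that 0 of 6 is near the background. These shares are counts on the log2(FPKM + 1) scale, as are all counts of genes past a threshold unless FPKM ratios are named. None of the 6 reached 1.5-fold either, where the background was 8.84% for lower and 9.86% for higher genes. On the log2 scale 2 of 6 were lower, against 48.1% of all genes compared. The median change of the 6 was 0.16, beside 0.02 for all genes. This median had no stable sign, since scaling to equal FPKM totals after removing the acinar genes gave -0.12, and the direction of Flt4 (-0.040), Pdpn (-0.049), Itga9 (-0.19) and the low Reln (-0.039) turned as well. The acinar genes held 12525 of the WT total of 542190, so this scaling came mostly from the unequal totals. Its factor on the Postn-DTR values was 0.788. That setting moved the median of all genes by -0.30. Vegfc and Nrp2 were past 1.5-fold lower under it and none of the 6 was higher, where the background was 20.7% and 4.78%. Vegfc was lower under all 6 alternatives, from -0.78 to -0.33, and Nrp2 from -0.71 to -0.24. In both libraries Pdpn and then Nrp2 had the highest levels, and Flt4, Mmrn1, Reln and Prox1 the lowest, in that order. Vegfc stood above Itga9 in WT and under it in Postn-DTR.

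To place these genes, 55 other genes of lymphatic endothelium and the VEGF-C axis were examined, of which 50 passed the minimum. Their median change was -0.082. On the log2(FPKM + 1) scale 0 of 50 were at least 2-fold lower in Postn-DTR and 3 at least 2-fold higher, beside 3.12% and 3.88% of all genes. At equal totals these counts became 6 and 1, with Clec1b the gene still higher, beside 5.80% and 2.26%. At 1.5-fold, 8 (16.0%) were lower and 5 (10%) were higher, beside 8.84% and 9.86%. By FPKM ratio without the pseudocount 1 of 50, Ackr2, was at least 2-fold lower and 3 were higher, beside 5.20% and 5.04%, and 10 were at least 1.5-fold lower and 5 higher, beside 12.3% and 12.0%. The second ligand of VEGFR-3, VEGF-D, listed under its older symbol Figf, was more abundant than Vegfc, at 26.8 (WT) and 28.1 (Postn-DTR). Vegfc thus amounted to 32.4% of Figf in WT and 20.9% in Postn-DTR. The genes that process VEGF-C did not share one direction. Ccbe1, whose product localises the protease, was at 5.77 and 6.61, and Adamts3, the protease that cleaves pro-VEGF-C, at 1.10 and 1.53, both higher in Postn-DTR. Adamts14, a related protease, was at 3.92 and 2.04, a change of -0.70. Svep1, a matrix protein needed for lymphatic remodelling, was at 16.2 and 11.6.

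Of the 4 other transcription factor genes above the minimum, 2 were lower and 2 higher in Postn-DTR. Sox18, which switches on Prox1 in the embryo, was at 38.3 (WT) and 22.6 (Postn-DTR), and Nr2f2, which encodes the venous factor COUP-TFII, at 17.1 and 9.13. Gata2, required for lymphatic valves, was at 4.02 and 4.98, and Hhex at 12.6 and 13.3, both higher. Foxc2, also a valve factor, was at 0.664 and 0.675, under the minimum. Both Sox18 and Nr2f2 are also expressed by blood endothelium, and Nr2f2 by fibroblasts. Of 11 receptor genes 9 were lower, beside 48.1% of all genes compared, and 3 of the 9 (Kdr, Tie1 and Tek) were also on the list of blood endothelial markers. Kdr, which encodes VEGFR-2, was at 22.4 and 13.6, so that it stood at 8.87 times the level of Flt4 in WT and 4.40 times in Postn-DTR. Plxnd1, a semaphorin receptor, was at 34.8 and 17.5, a change of -0.95 that lay just inside 2-fold. The adrenomedullin receptor genes Calcrl (6.26 and 3.23) and Ramp2 (85.8 and 58.4) were both lower, whereas their ligand gene Adm differed little, at 14.2 and 13.1. Adm and Tek, the gene of TIE2, were also reported by the study as selective to Aldh1a2+ FRCs among sorted omental stromal cells. Tek was at 8.96 and 7.61. Tie1 was at 23.4 and 17.8, and S1pr1 was higher at 36.7 and 42.8.

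**Figure D3:**
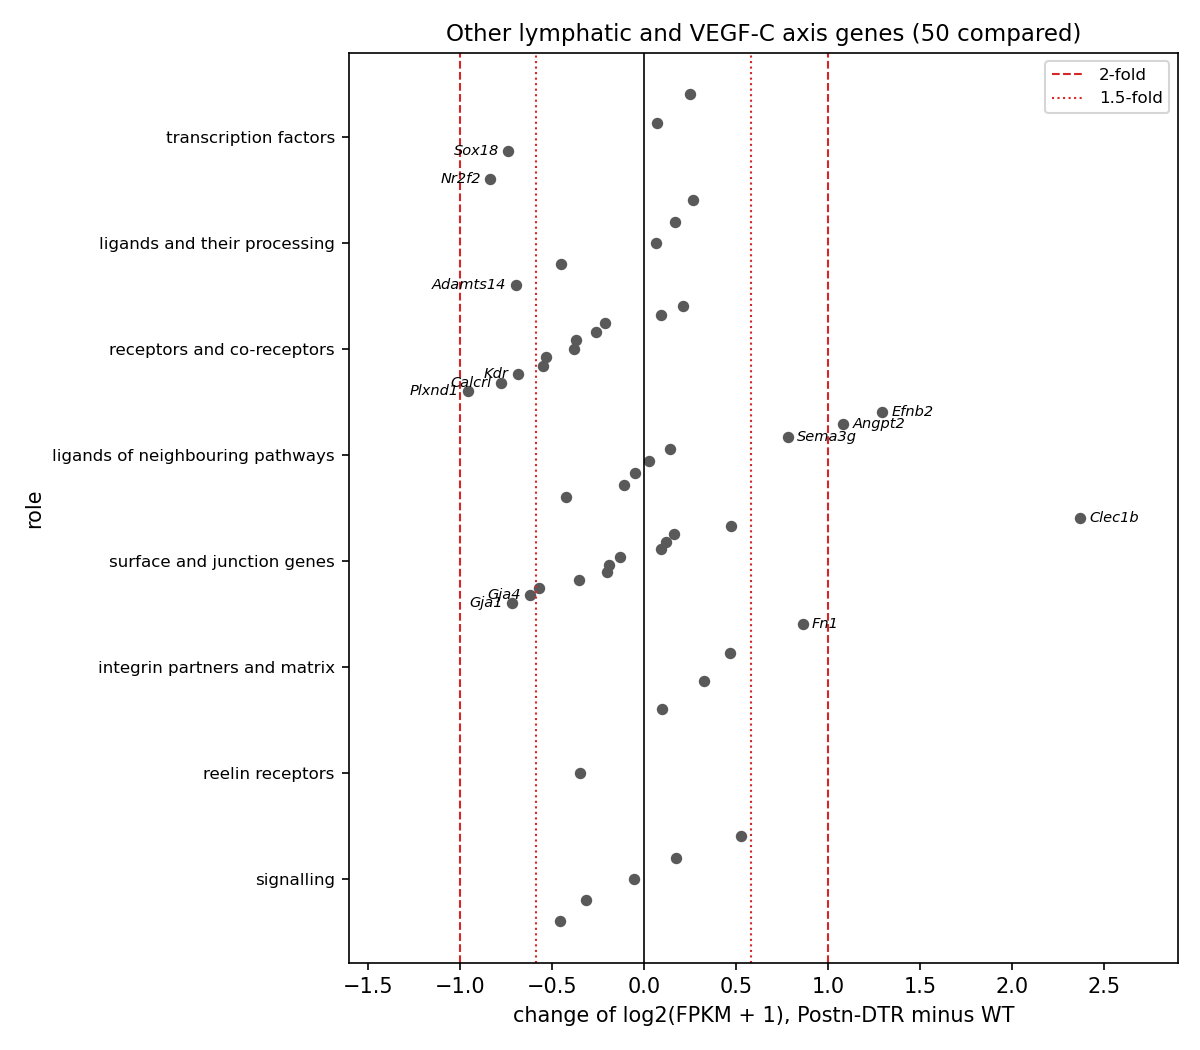
Horizontal axis, difference in log2(FPKM + 1) from WT to Postn-DTR of the 50 other lymphatic and VEGF-C axis genes above the expression minimum, 1 point per gene, grouped by role. Red lines mark 2-fold (dashed) and 1.5-fold (dotted). Names are given past 1.5-fold, 8 genes on the lower side and 5 on the higher side, and the points past 2-fold are Clec1b, Efnb2 and Angpt2.

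The genes at least 2-fold higher were a receptor and a pair of vascular ligands. Clec1b, which encodes CLEC-2, the receptor for podoplanin, was at 0.266 (WT) and 5.54 (Postn-DTR). This was 20.8-fold higher, with an interval from 9.51 to 71.6 on about 5 and 118 reads. Platelets and some myeloid cells carry CLEC-2, and the platelet and macrophage markers given above were higher in the same library. Their part in the Clec1b value was not tested. Efnb2, which encodes the arterial and valve ligand ephrin-B2, was at 5.27 and 14.4, and Angpt2, the TIE2 ligand needed for postnatal lymphatic growth, at 7.68 and 17.4. The fibronectin gene Fn1, which encodes a ligand of alpha-9 integrin, was at 459.1 and 836.8, and Itgb1, which encodes its partner subunit, at 141.6 and 178.0. Among markers shared with lymphatic vessels, Ccl21a (17.0 and 18.6), Gpr182 (6.36 and 5.39) and Ackr4 (3.49 and 4.02) each differed by less than 1.5-fold. Ackr2, which encodes a chemokine-scavenging receptor of lymphatic endothelium, was at 1.61 and 0.754, a ratio of 2.13-fold lower with an interval from 1.51 to 3.04 on about 105 and 51 reads. Ccl21a has near-identical copies, so its value is uncertain. The gap junction genes Gja4 (15.7 and 9.87) and Gja1 (27.1 and 16.1) were lower. The reelin receptor gene Vldlr was at 4.22 and 3.10, and Lrp8 (0.561 and 0.370) and Dab1 (0.0432 and 0.00809) were under the minimum.

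The start regions of Vegfc and Nrp2, the 2 members that were lower, and of Pdpn, the most abundant and higher, are given for reference. RefSeq windows on GRCm38.p6 were cut to the bases before the annotated start of the gene and are written 5′ to 3′ on the gene's strand. Capitals mark GGGCGG, the GC box, and AGGTCA, a core element of nuclear receptors such as the retinoic acid receptors, on either strand. The Vegfc stretch is chr8:54077282-54077531 (plus), the Nrp2 stretch chr1:62703067-62703284 (plus) and the Pdpn stretch chr4:143299565-143299814 (minus).
Vegfc: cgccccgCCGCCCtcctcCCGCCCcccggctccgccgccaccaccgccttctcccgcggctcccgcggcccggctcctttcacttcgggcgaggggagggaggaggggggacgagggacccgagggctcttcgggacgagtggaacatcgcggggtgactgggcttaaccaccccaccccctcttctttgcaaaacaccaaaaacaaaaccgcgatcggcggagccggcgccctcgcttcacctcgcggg
Nrp2: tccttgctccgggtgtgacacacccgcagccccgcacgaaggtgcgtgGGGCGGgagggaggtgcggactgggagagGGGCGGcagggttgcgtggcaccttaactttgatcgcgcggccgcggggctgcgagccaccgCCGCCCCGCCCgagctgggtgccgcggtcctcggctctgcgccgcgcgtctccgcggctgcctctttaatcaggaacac
Pdpn: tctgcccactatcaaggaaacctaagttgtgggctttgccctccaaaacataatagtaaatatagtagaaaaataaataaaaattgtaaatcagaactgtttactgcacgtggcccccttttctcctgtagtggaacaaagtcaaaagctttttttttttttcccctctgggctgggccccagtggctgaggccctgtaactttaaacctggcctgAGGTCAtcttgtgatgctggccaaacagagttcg

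In whole windows of the same length, from 250 bases before to 50 after each RefSeq start and on both strands, GGGCGG was found in 7 of the 9 windows of the 8 genes and in 35.7% of all 32851 windows. The genes with it were Flt4, Nrp2, Pdpn, Prox1, Reln and Vegfc. AGGTCA was found in 1 of 9, that of Pdpn, and in 16.3% of all. The AP-1 element TGANTCA was found in 1 of 9, that of Itga9, and in 7.81% of all. In the printed stretches GGGCGG occurs at 2 places before Vegfc and at 4 before Nrp2, of which the last 2 overlap. The printed Pdpn stretch lacks GGGCGG, but a whole window of Pdpn holds it, so the printed stretches do not separate lower from higher genes. AGGTCA occurs 34 bases before the start of Pdpn. These are letter matches and describe the sequence only.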

How the data were processed

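Whole omenta of DT-treated mice were profiled by RNA-seq with, per the labels, a stranded TruSeq mRNA kit (the study's methods name an NEBNext Ultra kit for sorted cells), 1 library per genotype, grouped by the genotype label. The authors deposited FPKM, with 1 value per gene symbol. The submitters' processing notes name TopHat2 2.1.1, Bowtie2 2.2.8, SAMtools 0.1.18, Cuffdiff 2.2.1 and mm10. The annotation, library scaling and depth are not given in the sources used here. Of 24346 symbols, 23310 (95.7%) matched GENCODE M21 (GRCm38), the source of positions and transcript lengths.

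For each gene, log2(FPKM + 1) in WT was subtracted from that in Postn-DTR. The 13127 genes whose FPKM averaged 1 or more over both libraries were compared. The pseudocount understates changes of low genes. Quoted folds are FPKM ratios without it. Among 723 genes under 0.1 FPKM, 174 had a ratio of 0.967, which gave the relative depth. Genes with 1 transcript then gave the denominators and a length reduction of 210 bp, at which 78.3% of 998 low values lay within 0.1 of a whole read. Read numbers are approximate, and are upper estimates for genes with shorter isoforms. Calculations used Python 3.11.15 with scipy 1.17.1 and were tested on simulated data. Each named gene was a member, a gene of the other lymphatic list, a marker of another cell type or Postn. The members and lists were chosen with earlier results of these data known. Muc16 and Spink3, which were on the marker lists, were not analysed here.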

Additional observations from a re-analysis of the deposited data

How the results depend on the processing

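No paired analysis was possible because each genotype had 1 library and the result came from no test. None of the 6 members compared reached 2-fold in either direction under any setting tried, or 1.5-fold at the reported scaling. Vegfc and Nrp2 (2 of 6) were past 1.5-fold lower at equal totals, a combination added after the data were seen. The median change of the 6, 0.16, became 0.085 with a pseudocount of 5, 0.091 with no minimum FPKM, 0.093 at the same 75th percentile, -0.15 with a minimum of 5 FPKM, -0.12 with the acinar genes removed and equal totals, and 0.31 when the blood endothelial markers were centred on 0, a setting added after the data were seen. For the other 50 genes, the median of -0.082 became -0.15 at the same 75th percentile and -0.39 at equal totals. Their 0 genes lower became 1 (Plxnd1) at the same 75th percentile, 6 at equal totals and 8 at 1.5-fold, and their 3 genes higher became 1 with a pseudocount of 5, 1 at equal totals, and 5 or 1 under the 1.5-fold or 3-fold threshold. Of all genes, the 410 lower became 643 and 168 with pseudocounts of 0.1 and 5, 249 with a minimum of 5 FPKM, 761 at equal totals, and 1160 or 153 under the 1.5-fold or 3-fold threshold. The 509 higher became 287 with a pseudocount of 5, 297 at equal totals, and 1294 or 199 under the 1.5-fold or 3-fold threshold. Higher thresholds, stricter minimums and larger pseudocounts lower a count by construction. The difference between libraries in pancreatic RNA, in scaling and in genotype cannot be told apart with 1 library each, and depth limits Prox1 and Clec1b.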
